A study of Homo sapiens with 36 samples.

Results

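Heavy polysomes were set against light polysomes in unmodified (WT) HUES6 cells, an established human embryonic stem cell line. A transcript was included when it reached 10 TPM or more in at least 3 of the 6 WT polysome libraries, and 9214 of the 223367 Ensembl transcripts in the table did so. TPM is an abundance that is corrected for transcript length and sums to 1000000 in each library. The third-highest value of the included transcript nearest the limit was 10.0001 TPM, and that of the nearest excluded one was 9.99995 TPM. The 596 transcripts with a third-highest value from 10 up to 11 TPM had a median absolute log2 difference between the fractions of 0.75, and the 668 from 9 up to 10 TPM had one of 0.73.

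On an mRNA that is being translated, several ribosomes can follow one another, and such an mRNA with its ribosomes is a polysome. A gradient sorts lysates by mass, so that free small subunits (40S) come first, single ribosomes (80S) next, then pairs of ribosomes (disomes) and then polysomes of rising ribosome number. The number of ribosomes an mRNA carries is known to depend on how often translation starts on it, how fast ribosomes move along it and how long its coding region is. Averaged over its copies in 2 polysome fractions, an mRNA enriched in the heavier one therefore carries more ribosomes than one enriched in the lighter. Copies in 40S, 80S and disomes do not enter this average, and the amount of the mRNA in the cell is a separate quantity.

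Each culture of the series gave an unfractionated Input, a 40S, an 80S and a disome sample and 2 polysome samples, numbered Polysome1 and Polysome2. The labels do not give the ribosome number of either polysome fraction. Polysome1 is called light and Polysome2 heavy here, from the numbering. The groups compared were WT Polysome1 and WT Polysome2, with 3 cultures each and both fractions taken from every culture. Further values come from 3 cultures of a knockout of the RNA-binding protein RBPMS (KO), labelled as the same line. All cultures grew in FTDA, a defined stem cell medium, received 100 ng/ml of the elongation inhibitor cycloheximide for 5 min to hold ribosomes in place, and carry the treatment label control. Equal amounts of RNA went into each library, so a level is a share of the mRNA in its fraction. A transcript that is less abundant in a fraction and a fraction that holds more of all the others cannot be told apart. Nothing in the labels says whether the 3 cultures of a genotype were grown on separate days or from separate clones, so the spread between them may be partly technical.

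No gene names stand in the table, and 0 of the 59792 genes of the gene table used for naming carried an Ensembl ID. Transcripts are therefore given by their versioned Ensembl IDs, 5 in all, and neither the stem cell markers nor RBPMS could be checked against the labels. Among the 9214 transcripts, 551 shared their values in all 36 libraries with at least 1 other, which can happen when IDs share their sequence. A change of 1 ID may also be a shift between isoforms of a gene.

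The 2 fractions held similar numbers of transcripts but different mixtures. Transcripts at 1 TPM or more numbered 32303, 29759 and 31212 in light polysomes of cultures 1, 2 and 3, and 29061, 27558 and 30336 in heavy polysomes. The number was lower in the heavy fraction of all 3 cultures, with an exact sign-flip permutation p of 0.25 (two-sided, 5 library measures tested, adjusted p = 0.625), the smallest that 3 pairs can give. The included transcripts made up 89.6%, 90.9% and 90.9% of the TPM in light polysomes and 91.1%, 91.6% and 91.0% in heavy polysomes. The 10 most abundant transcripts of a library took 7.27%, 6.74% and 8.80% in light and 8.59%, 10.99% and 5.52% in heavy polysomes, so the fractions overlapped in how concentrated they were.

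Across the 9214 transcripts, which are not independent replicates, libraries of one fraction resembled each other more than the 2 fractions of one culture did. Pearson's r of log2(TPM + 1) was 0.865 to 0.917 among the light libraries and 0.848 to 0.949 among the heavy ones. Between the light and the heavy library of one culture it was 0.711 in culture 1, 0.671 in culture 2 and 0.838 in culture 3. The fractions of culture 3 were thus nearer to each other than those of cultures 1 and 2, and its heavy library was the one least like the other heavy libraries.

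Of the 9214 transcripts, 2940 were higher in heavy than in light polysomes and 2235 were lower, which together is 56.2% of all tested (31.9% higher and 24.3% lower; limma with culture as a block, Benjamini-Hochberg adjusted p under 0.05). The sign of the difference was the same in all 3 cultures for 75.4% of the transcripts. All 3 heavy values lay above all 3 light values for 2753 transcripts (29.9%) and below them for 2281 (24.8%). Of the 2940, 2930 were higher in each culture, and of the 2235, 2231 were lower in each. The calls come from these same 3 cultures, so such agreement is favoured by the choice. The number of calls rests on culture 2 in part: without it 1142 were higher and 1208 lower, while without culture 3 the numbers were 2497 and 2366. After scaling to the ERCC spike-in total, which rests on 7 to 16 detected spike-ins a library, 3409 were higher and 876 lower, a share of 79.6% higher against 56.8% with TPM as deposited. In the ERCC fit limma gave transcripts no spread of their own (prior degrees of freedom infinite, against 3.77 with TPM as deposited). Its median standard error was 0.47 against 0.24, so its counts are not directly comparable. The majority turned with median-of-ratios scaling, at 2421 higher and 2612 lower. With a spread shared by more fractions fewer were called and most were lower, at 1079 higher and 1132 lower from all 18 WT libraries and 516 higher and 863 lower from all 36.

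**Figure D1:**
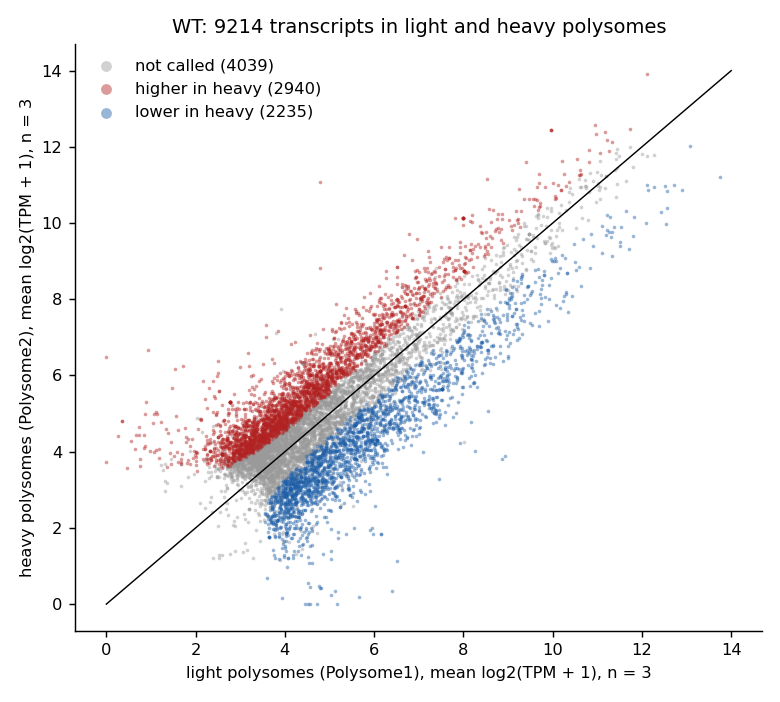
Each point is 1 of 9214 transcripts, placed by its mean log2(TPM + 1) over 3 WT cultures in light (horizontal) and heavy (vertical) polysomes, coloured by the limma call at an adjusted p under 0.05; the line marks equal levels. The 2940 higher and 2235 lower transcripts form bands on either side of the line over the whole range of levels.

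The differences were mostly of moderate size. Among transcripts higher in heavy polysomes the median difference was 1.11 on the log2(TPM + 1) scale, or 2.15-fold, and the smallest called was 0.53. Of these, 1785 differed at least 2-fold, 208 at least 4-fold and 48 at least 8-fold. Among transcripts lower in heavy polysomes the median was -1.40, or 2.64-fold, with 1759 at least 2-fold lower, 360 at least 4-fold and 45 at least 8-fold. The median over all 9214 was 0.22. Quantile normalization moved it to 0.15, median-of-ratios scaling to 0.08 and ERCC scaling to 0.70, so a difference is to be read against a middle that moves with the scaling.

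The 2 called groups exchanged places in the make-up of the fractions. Transcripts higher in heavy polysomes held 18.1%, 18.5% and 17.8% of all TPM in the light libraries of cultures 1, 2 and 3, and 46.2%, 52.2% and 33.5% in the heavy ones. Transcripts lower in heavy polysomes held 38.8%, 37.8% and 39.0% of light and 12.4%, 10.4% and 16.9% of heavy polysomes. The light libraries were nearly alike in these shares, and the heavy library of culture 3 lay between the light libraries and the heavy libraries of cultures 1 and 2. The 4039 transcripts that were not called held 32.8%, 34.5% and 34.1% of light and 32.5%, 29.0% and 40.7% of heavy polysomes. These shares use the calls of the same libraries and are a description of their weight.

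Median levels moved the same way. A transcript of the higher group had a median of 18.8, 17.8 and 16.2 TPM in the light libraries and of 42.4, 45.8 and 32.5 TPM in the heavy ones. A transcript of the lower group had a median of 43.4, 41.4 and 41.5 TPM in light and 14.9, 12.8 and 18.9 TPM in heavy polysomes. Few of these transcripts were absent from either fraction: at least 98.7% of the higher group reached 1 TPM in every light library, and at least 97.6% of the lower group did in every heavy library. These called transcripts thus differed between the fractions mainly in proportion. The inclusion rule favours this, since 8159 of the 9214 reached 10 TPM in libraries of both fractions. It therefore cannot show that the fractions share their transcripts in general.

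Some transcripts were included through a single fraction and so had to differ. In heavy polysomes alone, 493 transcripts reached 10 TPM in all 3 libraries with none of the light libraries at 10 TPM, and 426 of them were called higher. In light polysomes alone 562 did, and 518 were called lower. The other 8159 were included through libraries of both fractions. With the rule set to 10 TPM in all 6 libraries, 5360 transcripts remained, of which 1931 were higher and 1317 lower. None of those could be included through a single fraction.

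Calls were found at every abundance. By their mean over the 6 libraries the transcripts were put into 5 equal bins. In the lowest bin, 5.59 to 13.1 TPM, 380 were higher and 419 lower, 43.4% of the bin. In the highest, 75.0 TPM and above, 653 were higher and 541 lower, 64.8% of the bin. The median standard error was 0.30 in the lowest bin and 0.22 in the highest, while the median absolute difference was 0.80 and 0.98. Among the 100 most abundant transcripts, all averaging 1534 TPM or more, 30 were higher, 30 lower and 40 not called, with differences from -2.57 to 2.61.

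**Figure D2:**
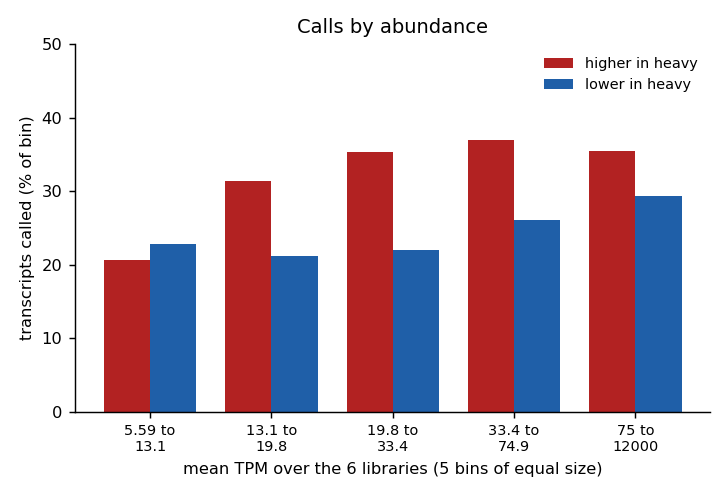
Bars give the share of transcripts called higher (red) or lower (blue) in heavy polysomes in each of 5 equal bins by mean TPM over the 6 WT polysome libraries. The share called rises from 43.4% in the lowest bin to 64.8% in the highest, and higher calls outnumber lower ones in every bin but the lowest.

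The remaining fractions of the same WT cultures were not used to choose or call transcripts, and they show where along the gradient the 2 groups lie. The disome libraries resembled the light polysomes, with r of 0.829 to 0.928 to the mean of the light libraries and 0.539 to 0.670 to that of the heavy ones. The 80S libraries did so as well, at 0.862 to 0.877 and 0.560 to 0.661. Input libraries were somewhat nearer to heavy than to light polysomes in each culture, at 0.721 against 0.689, 0.771 against 0.730 and 0.712 against 0.637 in cultures 1, 2 and 3. These are correlations over the 9214 transcripts, given as a description.

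Most transcripts higher in heavy polysomes already had rising mean levels before the heavy fraction, as most of all transcripts did. Their mean level rose both from 80S to disome and from disome to light polysomes for 2181 of 2940 (74.2%), against 64.8% of all transcripts. The median step was 0.39 from 80S to disome, 0.51 from disome to light and 1.11 from light to heavy on the log2 scale, against 0.49, 0.36 and 0.22 over all transcripts. The first of these steps was thus smaller than over all, and the last is the one that chose them. The middle step differed between cultures. Disome minus light had medians of -0.10, -0.24 and -1.12 in cultures 1, 2 and 3, against -0.10, -0.16 and -0.76 over all transcripts. The heavy fraction was where 2369 of them (80.6%, against 43.0% of all) had their highest mean of all 6 WT fractions, and Input was so for 530 of them, against 15.0% of all. The call for heavy above light left light polysomes as the highest fraction for none of them. In 40S 92.9% of them had their lowest mean, against 82.1% of all.

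Most transcripts lower in heavy polysomes had their highest level in light polysomes or disomes. They were called for light above heavy, so the heavy fraction could not be the highest and light is favoured by the choice. Light polysomes were the highest fraction for 1031 of 2235 (46.1%, against 23.8% of all), disomes for 805 (against 12.5% of all) and 80S for 251 (11.2%, against 4.55% of all). The median step was 0.51 from 80S to disome, -0.01 from disome to light and -1.40 from light to heavy, against the same medians over all transcripts. Disome minus light had medians of 0.09, 0.23 and -0.22 in cultures 1, 2 and 3, so its direction was reversed in culture 3. The level fell both from 80S to disome and from disome to light polysomes for 273 (12.2%), against 5.42% of all transcripts. In 80S 27.6% of them had a higher mean than in light polysomes, compared with 13.6% of all.

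The groups also lay apart in Input set against 80S, which uses neither polysome fraction. Transcripts higher in heavy polysomes were above their 80S level in Input, with median differences of 1.05, 1.20 and 1.74 in cultures 1, 2 and 3, and 85.3%, 85.9% and 86.5% of them were positive. Transcripts lower in heavy polysomes were below it, with medians of -0.39, -0.49 and -1.13, and 33.2%, 30.9% and 21.8% positive. Over all 9214 the medians were 0.38, 0.46 and 0.49. The same held for Input against disome, with medians of 0.39, 0.66 and 1.84 for the higher and -1.22, -1.18 and -1.04 for the lower group, against -0.43, -0.19 and 0.48 over all. In each culture the higher group lay above the median of all transcripts and the lower group below it, which 3 cultures can show with an exact p of no less than 0.25. The step from 80S to disome was positive in cultures 1 and 2, with medians of 0.78 and 0.75 over all transcripts, and 0.00 in culture 3. It separated the 2 groups less than Input did, at 0.67, 0.60 and -0.04 for the higher and 0.86, 0.77 and -0.05 for the lower group.

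**Figure D3:**
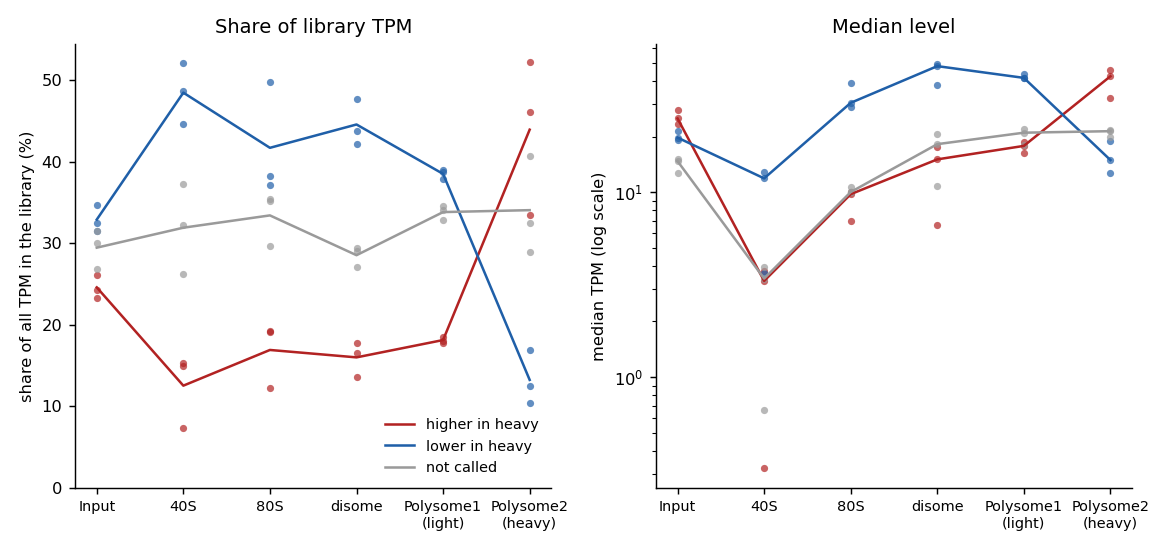
Left, the share of all TPM in a library taken by the transcripts called higher (red), lower (blue) or not called (grey) in heavy polysomes; right, their median TPM on a log axis. Points are single WT libraries, 3 for each fraction, and lines join means (left) or medians (right). The blue group leads from Input to light polysomes by share and from 40S to light polysomes by median. It falls to 10.4% to 16.9% of heavy polysomes, where the red group holds 33.5% to 52.2%.

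The same transcripts were read in the heavy and light polysomes of the 3 KO cultures, which share no library with the WT comparison. Most of them kept their WT direction in KO culture 3, and the groups lay together in KO cultures 1 and 2. Of the 2940 transcripts higher in WT heavy polysomes, 93.7% were also higher in KO culture 3, against 60.1% of all transcripts, with a median of 0.55 against 0.18. Of the 2235 lower ones, 91.0% were lower there, against 39.5% of all, with a median of -0.64. In KO culture 1 the medians were 0.00 for both groups, and 42.4% of the higher group were above 0 and 45.7% of the lower group below it, against 45.6% and 42.1% of all. In KO culture 2 the medians were -0.02 and -0.16, against -0.10 over all, and 35.5% of the higher group were above 0 and 65.2% of the lower group below it, against 31.2% and 58.6% of all. Exactly 0 were 15.3% and 12.3% of the higher group in KO cultures 1 and 2, and 6.80% and 6.17% of the lower group. In the polysome libraries of these 2 cultures, 68.6% to 75.3% of the higher group reached 1 TPM. Of the lower group 80.2% to 84.7% did.

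In KO cultures 1 and 2 the 2 polysome fractions were nearly alike. Pearson's r between the light and the heavy library, over the 9214 transcripts, was 0.969 in KO culture 1, 0.966 in KO culture 2 and 0.896 in KO culture 3, compared with 0.671 to 0.838 in WT. These transcripts were chosen by their levels in WT polysomes and not by those in KO. A difference of at least 2-fold was seen for 9.27%, 9.64% and 14.9% of transcripts in KO cultures 1, 2 and 3 and for 44.1%, 51.7% and 30.9% in WT cultures 1, 2 and 3. The heavy minus light difference correlated at 0.729 to 0.780 between WT cultures, at 0.586 to 0.662 between KO culture 3 and the WT cultures, and at -0.021 to 0.114 between KO cultures 1 and 2 and the WT cultures. Fewer transcripts reached 1 TPM in the polysome libraries of KO cultures 1 and 2, at 20594 to 21623, than in those of KO culture 3, at 30880 and 30940. The same was seen in unfractionated Input, at 18666 and 21914 in KO cultures 1 and 2 and 31380 in KO culture 3. The part of this lower number in the small differences was not tested, nor was whether the gradients of these cultures kept the 2 fractions apart. The ERCC total was 260 to 579 TPM in the 4 polysome libraries of KO cultures 1 and 2. It was 46.4 and 47.8 TPM in those of KO culture 3 and 2.55 to 16.1 TPM in the WT polysome libraries. In Input it was 1271 and 1089 TPM in KO cultures 1 and 2 and 306 TPM in KO culture 3.

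**Figure D4:**
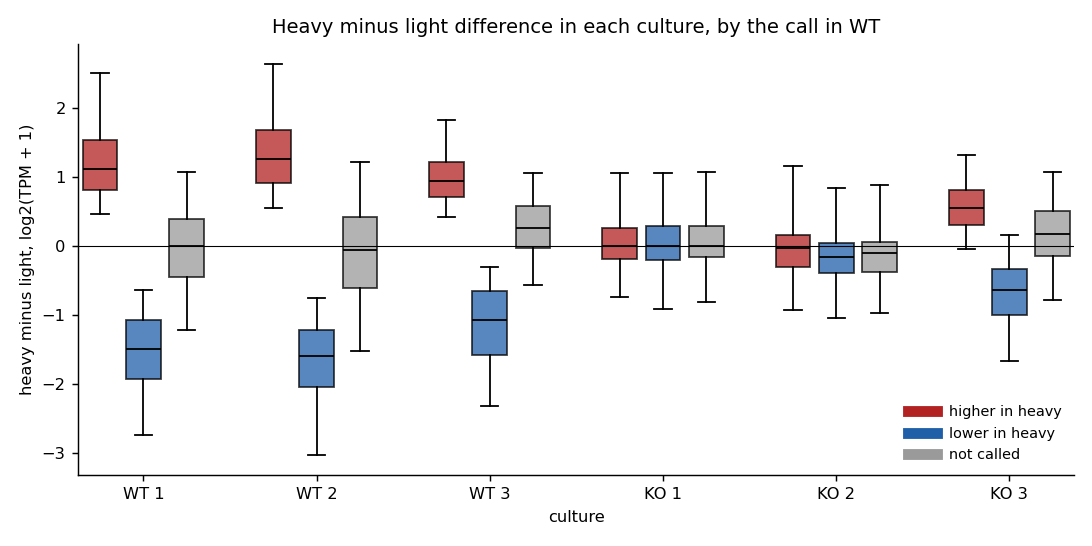
Boxes give the heavy minus light difference on the log2(TPM + 1) scale in each culture for transcripts called higher (red), lower (blue) or not called (grey) in WT; the line is the median, the box spans the middle quartiles and whiskers reach the 5th and 95th percentiles over transcripts. The groups are apart in WT, where they were called, and in KO culture 3, with medians of 0.55 and -0.64, and lie together near 0 in KO cultures 1 and 2.

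Whether the heavy minus light difference itself differed between the genotypes was tested as an interaction over the 12 polysome libraries. It was called for 1 of the 9214 transcripts (0.0109%; limma with the 6 cultures as a block, adjusted p under 0.05), with 3295 at an unadjusted p under 0.05. Within KO alone 0 transcripts were called between the fractions (0%; limma, paired by culture), with 392 at an unadjusted p under 0.05. Both counts include KO cultures 1 and 2, whose fractions were nearly alike. The interaction count moved with single cultures. Without KO culture 3 the interaction was called for 1930 transcripts, without KO culture 1 or KO culture 2 for 0, and without both of these together for 0. Without WT cultures 1, 2 and 3 the numbers were 2, 0 and 22. Without the replicate block the number was 0, and after quantile normalization 2032.

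The transcript called in the interaction test was ENST00000493185.2, and it is named for that reason after its values were seen. In WT it stood at 31.6, 23.8 and 14.1 TPM in light polysomes of cultures 1, 2 and 3 and was listed at 0 in all 3 heavy libraries. In KO it stood at 118, 180 and 26.5 TPM in light and at 117, 138 and 24.9 TPM in heavy polysomes. It was included through the WT light libraries alone and so had to differ in WT, and its WT values are a description. In KO each culture held nearly the same level in both fractions, culture 3 included. The limma interaction (adjusted p = 0.01756) rests in part on that WT difference.

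Of the transcripts higher in heavy polysomes, those with the largest differences were ENST00000330181.9 and ENST00000451562.5. They were picked for their size: they led the called transcripts that averaged 20 TPM or more in the higher fraction and had one direction in all 3 cultures. ENST00000330181.9 was listed at 0 in all 3 light libraries and stood at 128, 130 and 42.3 TPM in the heavy libraries of cultures 1, 2 and 3. It was included through the heavy libraries alone and so had to differ, and its values are a description. It was listed at 0 in all WT 40S, 80S and disome libraries as well and reached 0, 7.12 and 6.96 TPM in Input. Among the WT gradient fractions it was thus seen in heavy polysomes and in no other, at a level above that in Input. In KO it was listed at 0 in all light libraries and in the heavy libraries of cultures 1 and 2, and stood at 75.2 TPM in the heavy library of culture 3.

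ENST00000451562.5 was among the most abundant transcripts of the heavy fraction. It stood at 7.63, 11.02 and 203 TPM in light and at 2564, 3622 and 1057 TPM in heavy polysomes, where it ranked 32, 17 and 160 in its library. The difference was 6.28 on the log2(TPM + 1) scale (SE 1.16, limma adjusted p = 0.00895), with no overlap between the fractions. Culture 3 had both the highest light and the lowest heavy value, and without it the difference was 8.23 (limma adjusted p = 0.008936). The WT Input libraries held 980, 1273 and 1038 TPM, while the 80S libraries held 2.63 to 8.42 TPM and the disome libraries 1.79 to 10.8 TPM. The level was therefore high in Input and in heavy polysomes and low in 80S, disome and 2 of the 3 light libraries. In KO culture 3 it rose from 15.2 TPM in light to 1005 TPM in heavy polysomes, with 1089 TPM in Input. In KO cultures 1 and 2 it was at 1.10 and 0.506 TPM in light polysomes, was listed at 0 in heavy polysomes and stood at 0 and 3.16 TPM in Input.

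Of the transcripts lower in heavy polysomes, ENST00000429938.1 and ENST00000452431.5 differed most by the same rule. ENST00000429938.1 stood at 76.1, 86.1 and 87.6 TPM in light polysomes and at 1.09, 0 and 0 TPM in heavy polysomes. Both were included through the light libraries alone and so had to differ, and their values are a description. The light values of ENST00000429938.1 lay within a narrow range. In the WT cultures the 80S libraries held 228, 318 and 392 TPM, the disome libraries 143, 183 and 366 TPM, the 40S libraries 120, 117 and 394 TPM and Input 46.6, 53.9 and 26.3 TPM. Light polysomes thus held less of it than 40S, 80S and disomes in every WT culture. In KO cultures 1 and 2 it stood at 196 and 168 TPM in light and at 168 and 134 TPM in heavy polysomes. In KO culture 3 it stood at 56.4 TPM in light and 0.209 TPM in heavy polysomes, as low as in the WT heavy libraries.

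ENST00000452431.5 stood at 90.9, 72.6 and 18.3 TPM in light polysomes and at 0, 0 and 0.437 TPM in heavy polysomes. It was listed at 0 in all 3 WT Input libraries, although the WT disome libraries held 76.9, 53.6 and 89.7 TPM and the 80S libraries 18.6, 44.8 and 116 TPM. Input was thus listed at 0 beside such levels in fractions of the same cultures. What a listed 0 says about the RNA in the cells was not tested. In KO the light libraries held 29.3, 142 and 91.7 TPM and the heavy ones 53.5, 89.6 and 111 TPM, so that the fractions overlapped in KO, in culture 3 as in the others. Its interaction had an adjusted p of 0.05279 in limma and was not called.

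**Figure D5:**
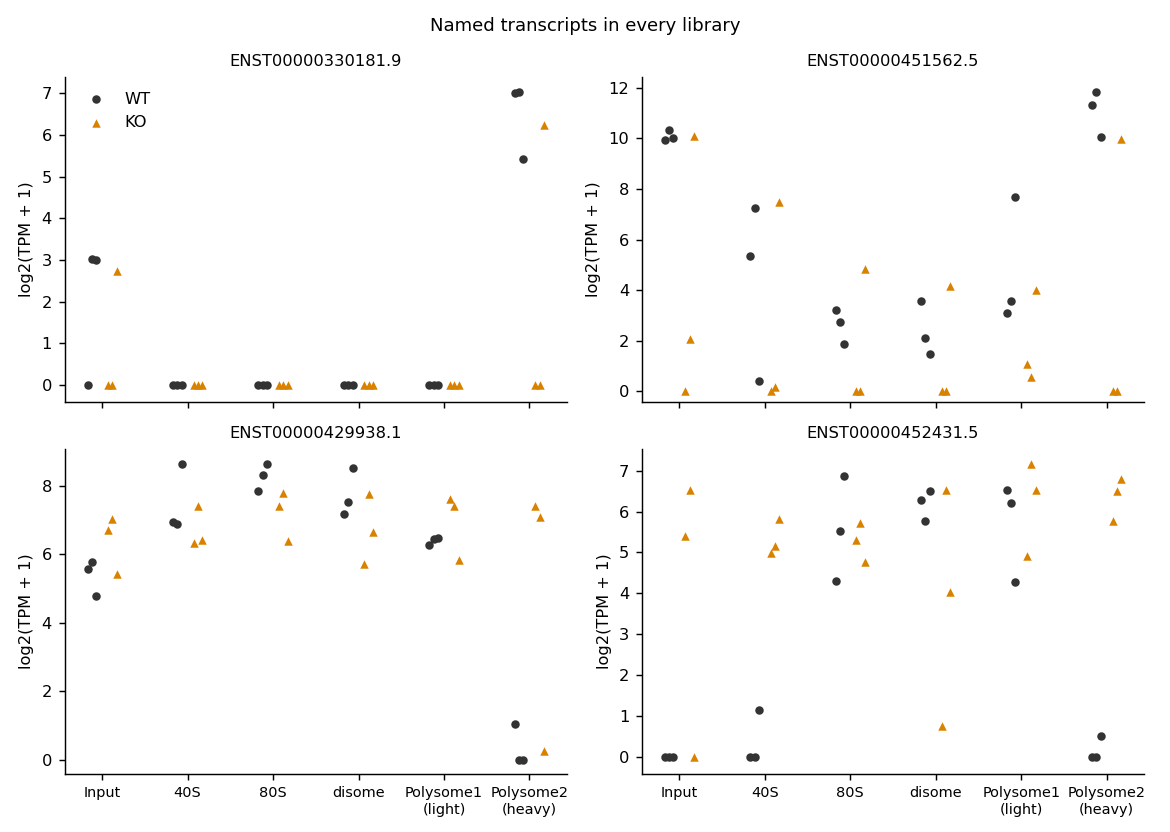
Each panel shows 1 named transcript as log2(TPM + 1) in all 36 libraries, with WT as circles and KO as triangles, 3 cultures for each fraction in the order 1, 2, 3 from left to right. The upper 2 transcripts are high in WT heavy polysomes and in KO culture 3 only among the KO heavy libraries; the lower 2 fall to at most 1.09 TPM in WT heavy polysomes.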

How the data were processed

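The authors deposited 1 table with a TPM value for each Ensembl transcript in 36 libraries. Per the submitters' processing notes it was made with kallisto and sleuth on hg19, and no version is stated there. Library preparation used a stranded mRNA kit and paired reads of 75 nt, per the labels' protocols. TPM keeps no depth, so the depth of each library is unknown here and values carry no counting interval. The 92 ERCC rows were set aside. Transcripts with 10 TPM or more in 3 or more of the 6 WT polysome libraries were kept, values were transformed as log2(TPM + 1), and heavy minus light was fitted with limma 3.58.1 in R 4.3.3 with culture as a block and a variance trend, leaving 2 residual degrees of freedom. P-values were two-sided and adjusted over the 9214 transcripts (Benjamini-Hochberg, threshold 0.05). This scale makes differences of low transcripts too small.

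Cultures were paired because the descriptions name each library by a culture number. Deviations from the fraction means correlated at 0.234, 0.161 and 0.501 between the 2 fractions of cultures 1, 2 and 3. The light library of culture 1 correlated at 0.290 with the heavy library of culture 2, and that of culture 2 at 0.125 with the heavy library of culture 1, so this check does not tell cultures 1 and 2 apart. On simulated data of the WT comparison, with limma's moderated spread as noise and 200 of 9214 transcripts changed, 86 of 100 changed by 2 log2 units and 20 of 100 changed by 1 were recovered, and 10 of 116 calls were of unchanged transcripts. With 5000 changed, 2479 of 2500 and 2198 of 2500 were recovered, and 2.40% of calls were unchanged ones. With the unmoderated spread as noise and 200 changed, 0 were called. The transcripts, rules and tests were chosen with earlier results of these data known. The rule for named transcripts asked for 12 in each direction where genes are named, and for 2 otherwise. The planned gene lists, cell type markers, coding lengths and sums per gene were not used, because no transcript was matched to a gene. Python 3.11.15 with pandas 2.3.3, numpy 2.4.6 and matplotlib 3.10.9 made the tables and figures.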

Additional observations from a re-analysis of the deposited data

Results flagged for a closer look

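The heavy minus light difference differed between KO and WT, by limma's interaction test, for 1 transcript, ENST00000493185.2. The interaction was 4.37 on the log2(TPM + 1) scale (SE 0.35, limma adjusted p = 0.01756), and it was listed at 0 in all 3 WT heavy libraries, so this size depends on the pseudocount. The transcript was included through the WT light libraries alone and so had to differ in WT, and that difference enters the interaction. With KO culture 1, KO culture 2 or WT culture 2 left out, or without the replicate block, 0 transcripts were called. A pseudocount of 0.1 TPM gave 1 call. Rows kept at 10 TPM in 6 or more of the 12 polysome libraries, an alternative added after seeing the data, gave 1 call among 8189. These counts do not say which transcript was called.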

How the results depend on the processing

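For the WT comparison, 5175 transcripts were called with culture as a replicate block. The fit without the block called 3900, and pseudocounts of 0.1 and 5 TPM, quantile and median-of-ratios scaling and eBayes with no trend called 5033 to 5295. Median-of-ratios scaling gave 48.1% higher calls against 56.8%. With 1 TPM in 3 or more libraries, 3729 of 30857 transcripts were lower and 3526 higher. With 10 TPM in all 6 libraries, 3248 of 5360 were called, 1931 higher and 1317 lower. With any value above 0 in the 6 libraries, limma called 0 of 135053, 0 higher and 0 lower, with 15411 at an unadjusted p under 0.05. ERCC scaling left 876 lower. The fit on all 18 WT libraries called 2211, 1079 higher and 1132 lower, and that on all 36 libraries 1379, 516 higher and 863 lower. Of these, 1075 and 1122, and 515 and 859, were called in the same direction with 6 libraries. Leaving out 1 culture gave 2350 to 4863 calls, 1142 to 2497 higher and 1208 to 2366 lower. After the data were seen, 1 row for each set of identical values gave 4994 calls, and a mean of 10 TPM 5032.

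The interaction was called for 1 transcript, for 0 without the replicate block, for 2032 after quantile normalization, for 0 without KO replicates 1 and 2 together (an alternative added after seeing the data), and for 0 to 1930 with 1 culture left out. The causes of these changes were not tested. The 4 transcripts named for the WT comparison kept their direction and call in all 11 alternatives run on them. All 11 used the same 9214 transcripts, chosen by the same rule. Only ENST00000451562.5 among the 4 was included through both fractions. The others had to differ, so for them the kept direction is no support. Coding length and sums per gene were not run. The unknown depth limits what a value near 0 can show.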
